A study of Mus musculus with 7 samples.

Results

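The interferon-induced transmembrane (IFITM) genes were examined in the hearts of mice that had or had not received human CD4+ T cells. The 6 members, Ifitm1, Ifitm2, Ifitm3, Ifitm5, Ifitm6 and Ifitm10, were taken by symbol from a table of counts per gene, in which each matched 1 of 20343 complete rows. All 7 animals were NSG-DR1 mice, labelled NSG-DRB1*0101, an immunodeficient strain that lacks its own T, B and NK cells, keeps neutrophils, monocytes and macrophages, and carries a human HLA-DR1 transgene. The 4 control hearts came from untreated mice, and the 3 transferred hearts came from mice given human CD4+ T cells 6 weeks earlier. Polyadenylated RNA was prepared from the apical myocardium. Each heart carries an animal identifier of its own, and the labels name no age, sex, cell dose, mock injection or T cell donor.

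IFITM proteins are small membrane proteins with a CD225 domain that restrict the entry of enveloped viruses. Interferons bind receptors that signal through JAK kinases, and the resulting transcription factors, with IRF7 as an amplifier, bind interferon-stimulated response elements near the starts of such genes. Ifitm3 acts mainly at endosomes and Ifitm1 mainly at the cell surface, where it is found with the tetraspanin CD81. Ifitm2 is a close relative of Ifitm3, and Ifitm6 is known from myeloid cells. Ifitm5, also called Bril, is an osteoblast protein, and the function of Ifitm10 is little known.

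On mouse build GRCm38.p6, 5 members lay in a cluster on chromosome 7. Ifitm5 occupied positions 140948958 to 140950243, Ifitm2 140954837 to 140959686, Ifitm1 140967429 to 140969827, Ifitm3 141009590 to 141010744 and Ifitm6 141015812 to 141016892. Ifitm10 lay apart at 142325835 to 142373779. Ifitm1 was on the plus strand and the other 5 on the minus strand. No other gene of the table overlapped a member.

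The bases around a RefSeq transcription start are shown for the 4 cluster genes that passed the expression filter, because these neighbours differed in whether they held the core of the response element. Each stretch runs from 100 bases before the start to 30 bases after it, from RefSeq on GRCm38.p6, and capitals mark each match to GAAANNGAA. The positions are chr7:141010715-141010844 on the minus strand for Ifitm3, chr7:140955932-140956061 on the minus strand for Ifitm2, chr7:140967976-140968105 on the plus strand for Ifitm1 and chr7:141016863-141016992 on the minus strand for Ifitm6. The RefSeq start used was the outer end of the gene in the table for Ifitm3 and Ifitm6, but lay 3725 bases inside it for Ifitm2 and 647 bases inside it for Ifitm1.
Ifitm3: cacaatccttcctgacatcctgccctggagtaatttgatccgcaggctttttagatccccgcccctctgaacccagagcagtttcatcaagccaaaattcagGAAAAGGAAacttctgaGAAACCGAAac
Ifitm2: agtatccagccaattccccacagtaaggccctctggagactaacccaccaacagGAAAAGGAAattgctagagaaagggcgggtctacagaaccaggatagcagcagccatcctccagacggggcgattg
Ifitm1: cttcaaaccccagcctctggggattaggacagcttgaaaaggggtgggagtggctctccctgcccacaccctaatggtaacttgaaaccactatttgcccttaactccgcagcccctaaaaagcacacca
Ifitm6: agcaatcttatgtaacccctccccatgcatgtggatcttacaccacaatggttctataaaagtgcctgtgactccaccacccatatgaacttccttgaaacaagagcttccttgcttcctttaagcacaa

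Both strands of each window of 300 bases, from 250 before to 50 after the start, were searched. All 6 members had at least 1 such window in the RefSeq table. The window of Ifitm3 held 2 matches, GAAAAGGAA from base 3 to base 11 after the start and GAAACCGAA from base 20 to base 28. The window of Ifitm2 held 1 match, GAAAAGGAA from base -46 to base -38. The windows of Ifitm1, Ifitm5, Ifitm6 and Ifitm10 held none, which says only that these letters are not in those windows. Over all 27025 genes in that table, 9.76% held the motif. Of the tested interferon-stimulated genes described further on, 25 of the 32 with a window held it.

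Levels are given as CPM, counts scaled to the library total, over the analysed part of the genome, chromosomes 1 to 7 and the start of chromosome 8, after TMM scaling. The 7 columns held between 16402179 and 25190560 counts there, so that 3 counts corresponded to between 0.115 and 0.189 CPM. Such floors and the intervals below cover counting error only. Summed markers of cardiomyocytes, 5 of 9 of them in this part of the genome, lay between 57822 and 66948 CPM in all hearts. In bulk tissue, fewer cells of a type and less RNA per cell cannot be told apart.

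Per kb of exon, Ifitm3 and Ifitm2 far exceeded the other members in control hearts. Ifitm3 averaged 265 ± 40.3 CPM per kb (SD, n = 4) and Ifitm2 106 ± 6.92 CPM per kb (SD, n = 4). Ifitm1 followed at 6.07 ± 1.67 CPM per kb (SD, n = 4). On this scale the 3 ranges were separate from each other and from the rest. The order of Ifitm3 and Ifitm2 rests on the combined exon length of Ifitm2, 1384 bases, where its GENCODE transcript has 655. Per kb of transcript, a choice made after the data were seen, Ifitm2 ran from 215 to 246 and Ifitm3 from 210.4 to 304 CPM per kb in control hearts, so that they overlapped and could not be ordered. Ifitm6 at 0.897 ± 0.607, Ifitm10 at 0.570 ± 0.103 and Ifitm5 at 0.396 ± 0.208 CPM per kb (SD, n = 4) overlapped per kb of exon and could not be ordered. The order of the mean levels per kb of exon was the same in transferred hearts, where Ifitm3 averaged 527 ± 231 CPM per kb (SD, n = 3).

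The comparison of the study was control against transferred hearts. By the edgeR quasi-likelihood test with Benjamini-Hochberg adjustment over 7667 genes, 0 of the 5 members that passed the expression filter had an adjusted p-value under 0.05, against 0.235% of all tested genes (0.13% higher and 0.104% lower in transferred hearts). Without adjustment all 5 had a p-value under 0.05 and were higher in transferred hearts, against 12.4% of all tested genes (7.17% higher and 5.27% lower). That count was 2 without control heart 2, control heart 3 or transferred heart 2, 3 without control heart 1 or 4, and 4 without transferred heart 1. DESeq2 called 1 of the 5, Ifitm6, where 2.5% of all tested genes were called higher. Limma-voom called 0 of the 5, with 3 under 0.05 before adjustment, and 0 of all tested genes. For limma-voom and for the left-out hearts, no unadjusted share over all genes is given. EdgeR also called 0 with scaling to total counts, where 0.339% of genes were called higher, and 0 of 6 with a filter of at least 1 count, where 0.544% were. Ifitm6 passed the filter only through the transferred hearts, of which 3 reached its 0.485 CPM, compared with 1 control heart, so it had to differ to be tested and adds nothing to these counts. Ifitm5 did not pass it.

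**Figure D1:**
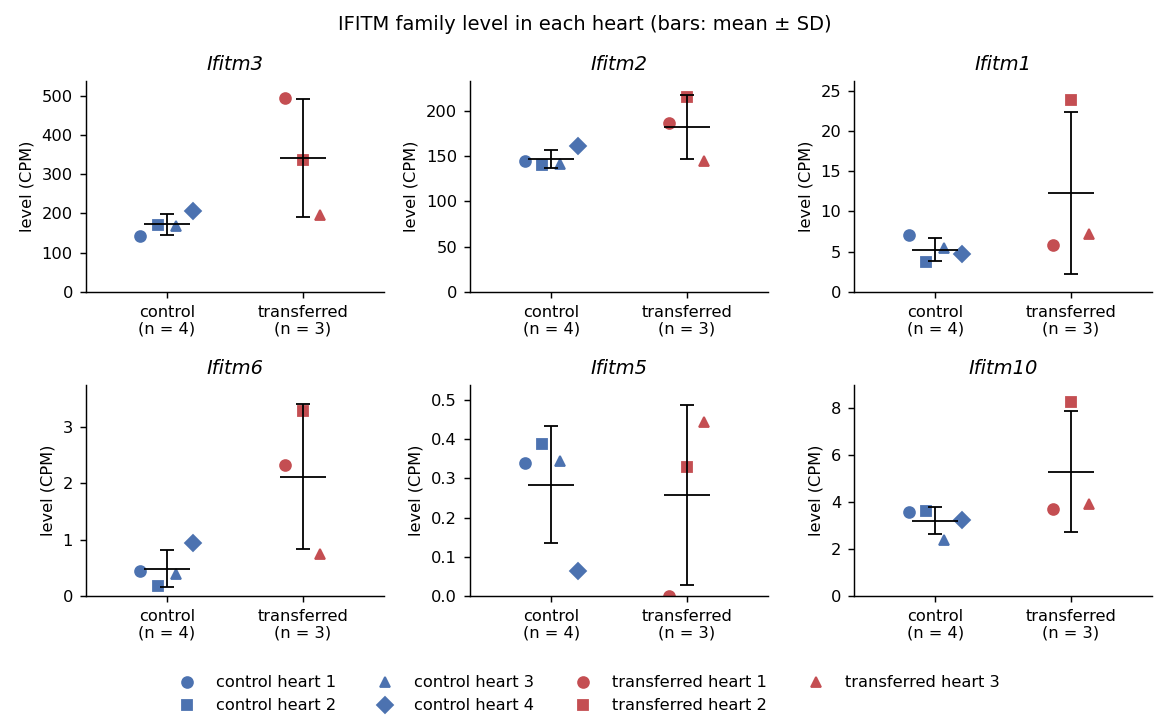
Level of each IFITM gene in every heart, in CPM on a linear axis that starts at 0; each point is 1 heart, shaped by heart number, and bars give the mean and SD of 4 control and 3 transferred hearts. For Ifitm3, Ifitm2 and Ifitm6, transferred hearts 1 and 2 lay above all control hearts while transferred heart 3 lay among them. For Ifitm1 and Ifitm10, transferred heart 2 stood alone, at 23.8 and 8.28 CPM.

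Ifitm3, the endosomal restriction factor, was at 143, 170.0, 169 and 206 CPM in control hearts 1 to 4. It was at 494, 335 and 195 CPM in transferred hearts 1 to 3. Transferred hearts 1 and 2 thus exceeded every control heart, and transferred heart 3 was below control heart 4. The means were 172 ± 26.1 CPM (SD, n = 4) and 342 ± 150 CPM (SD, n = 3). The difference was 0.99 on the log2 scale with a standard error of 0.28 (edgeR adjusted p = 0.217) and ranked 178 among the 7667 tested genes, counted from the highest. Without transferred heart 3 it was 1.27 (edgeR adjusted p = 0.0141), and without transferred heart 1 it was 0.63 (edgeR adjusted p = 0.240).

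Ifitm2 was nearly uniform in control hearts, at 145, 141, 141 and 161 CPM. It was at 187, 215 and 144 CPM in transferred hearts 1 to 3. Transferred hearts 1 and 2 were above every control heart and transferred heart 3 lay within the control range. On the log2 scale the fold change was 0.31 with a standard error of 0.12 (edgeR adjusted p = 0.344). It was 0.17 without transferred heart 2 (edgeR adjusted p = 0.733) and 0.45 without transferred heart 3 (edgeR adjusted p = 0.0524).

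Because Ifitm3 and Ifitm2 made up nearly all IFITM counts, their balance was followed within each heart, where the scaling of the libraries plays no part. Ifitm3 held 47.7% of the summed IFITM counts in control heart 1 (95% Wilson interval 46.4% to 48.9%), and 53.4%, 53.0% and 54.8% in control hearts 2 to 4. It held 71.3% in transferred heart 1 (95% Wilson interval 70.5% to 72.1%), 57.2% in transferred heart 2 and 55.5% in transferred heart 3. The groups did not overlap, but the intervals of transferred heart 3 (54.4% to 56.7%) and control heart 4 (53.5% to 56.1%) did. The mean share was 52.2 ± 3.12% (SD, n = 4) against 61.3 ± 8.67% (SD, n = 3), a difference of 9.13 percentage points (exact permutation p = 0.0286, two-sided, which is the lowest value possible with 35 splits). Without transferred heart 1 the difference was 4.14 percentage points (exact permutation p = 0.2).

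**Figure D2:**
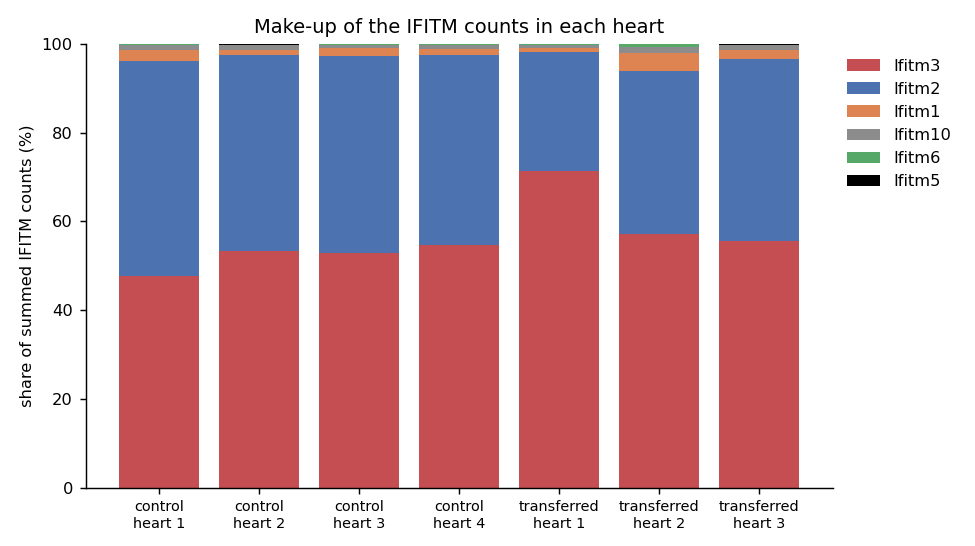
Share of the summed IFITM counts held by each member in every heart, in percent; each bar is 1 heart and its segments are the 6 members. The Ifitm3 segment took 47.7% to 54.8% of the control bars and 55.5% to 71.3% of the transferred bars.

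Ifitm2 and Ifitm3 are related in sequence, so it was asked how far their reads could be told apart. Over 539 aligned bases, GENCODE transcripts of Ifitm2 and Ifitm3 were 79.0% identical. No window of 75 bases, the stated read length, was shared between any 2 members. Ifitm3 shared 0.662% of its 75-base windows with another annotated transcript. For Ifitm2 the share was 42.0%, most of it (33.4% of all its windows) with Gm45717, a GENCODE gene that reaches from Ifitm5 into Ifitm2 and has no row of its own in the table analysed. The rest was shared with processed pseudogenes. The level of Ifitm2, and that of Ifitm5, which shared 22.6% with Gm45717, is therefore less certain than that of Ifitm3. Fractional counts were present in 2 of 7 hearts for both Ifitm2 and Ifitm3 and in none for the other members.

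Ifitm1, the cell-surface member, was at 7.10, 3.66, 5.49 and 4.73 CPM in control hearts 1 to 4. It was at 5.77, 23.8 and 7.16 CPM in transferred hearts 1 to 3. Transferred heart 2 exceeded all the others, transferred heart 1 was within the control range, and transferred heart 3 was just above control heart 1. The fold change was 1.23 on the log2 scale with a standard error of 0.49 (edgeR adjusted p = 0.353). Without transferred heart 2 it was 0.30 (edgeR adjusted p = 0.826). The heart with the highest Ifitm3 level was thus not the one with the highest Ifitm1 level.

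Ifitm6, the myeloid member, was near the floor in control hearts, with 9, 4, 10 and 15 counts or 0.438, 0.172, 0.384 and 0.947 CPM. Transferred hearts 1 to 3 held 46, 70 and 15 counts, or 2.33, 3.29 and 0.741 CPM. Transferred hearts 1 and 2 were above every control heart, and transferred heart 3 was not. On the log2 scale this was a difference of 2.18, standard error 0.59 (edgeR adjusted p = 0.170). Since only the transferred hearts carried it past the filter, this and the next values describe Ifitm6 and are no support for a difference. DESeq2 gave 2.17 (DESeq2 adjusted p = 0.0330), and without transferred heart 3 the edgeR value was 2.59 (edgeR adjusted p = 0.0448). Over all processing choices tried, its adjusted p-value ranged from 0.0330 to 0.492.

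Ifitm10, the member outside the cluster, was at 3.60, 3.61, 2.38 and 3.22 CPM in control hearts 1 to 4. It was at 3.70, 8.28 and 3.90 CPM in transferred hearts 1 to 3. The groups did not overlap, as for 5.99% of tested genes in this direction, but transferred hearts 1 and 3 exceeded the highest control heart by a small margin only. The log2 fold change was 0.73 with a standard error of 0.31 (edgeR adjusted p = 0.377). Without transferred heart 2 it was 0.25 (edgeR adjusted p = 0.854). GENCODE lists a gene that shares 2.99% of the 75-base windows of Ifitm10, Gm49369.

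Ifitm5, the osteoblast member, had 7, 9, 9 and 1 counts in control hearts and 0, 7 and 9 in transferred hearts 1 to 3. Its mean was 0.284 ± 0.149 CPM (SD, n = 4) against 0.258 ± 0.231 CPM (SD, n = 3), with a two-sided exact permutation p of 0.743. The count of 0 in transferred heart 1 allows a level of up to 0.152 CPM. Of the osteoblast markers, Ibsp was at 0 in all hearts and Bglap, Bglap2 and Dmp1 averaged at most 0.132 CPM in either group, while Alpl, which other cells also express, averaged 141 CPM in control hearts. A difference in Ifitm5 was not detectable at this depth.

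The likeness of the members over the hearts varied. Pearson's r of log2 CPM over the 7 hearts, given as a description of points that share libraries and 1 contrast, was 0.94 between Ifitm2 and Ifitm6, 0.86 between Ifitm3 and Ifitm6, and 0.85 between Ifitm2 and Ifitm3. It was 0.86 between Ifitm1 and Ifitm10. The other pairs formed a range, from 0.38 between Ifitm1 and Ifitm3 and 0.47 between Ifitm3 and Ifitm10, through 0.66 between Ifitm6 and Ifitm10, 0.71 between Ifitm1 and Ifitm6 and 0.74 between Ifitm1 and Ifitm2, to 0.78 between Ifitm2 and Ifitm10. The tested genes with the highest r to Ifitm3 were Gm8979, B4galt5, Anp32e, Samhd1 and Usp18, with r from 0.97 to 0.99. Samhd1 is an antiviral dNTP hydrolase, and Usp18 removes ISG15 and dampens the interferon receptor. Those for Ifitm6 were Pip4k2a, Mstn, Ncf1, C3ar1 and Slc11a1 (r from 0.96 to 0.98), of which Ncf1, C3ar1 and Slc11a1 are known from phagocytes. Those for Ifitm2 were Ptma, Arhgdib, Swap70, Prkcb and Gm4617 (r from 0.97 to 0.99). Those for Ifitm1 were Per2 and Klf15, a clock gene and a glucocorticoid-responsive factor, and Slc52a3, Cnot6l and Tnfsf10 (all r = 0.97). For Ifitm10 they were Adam15, Rfc2, Prr5l, Acss1 and Pla2g12a (r = 0.98 for each).

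**Figure D3:**
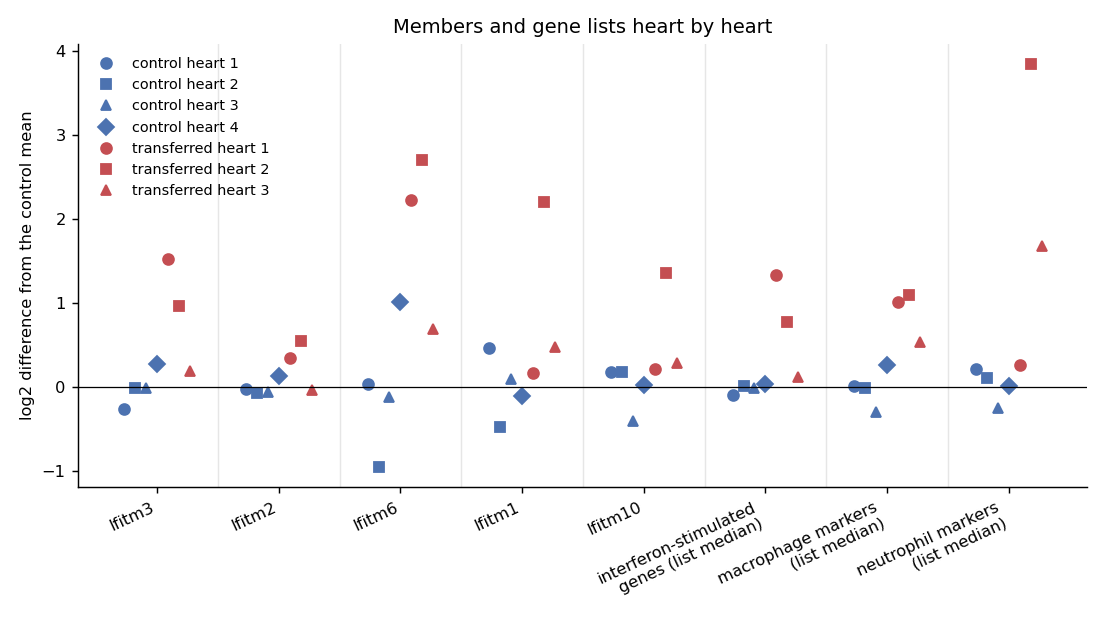
Log2 difference from the control mean for the 5 tested IFITM genes and for the median gene of 3 lists; each point is 1 heart, control in blue and transferred in red, shaped by heart number. Ifitm3 and the interferon-stimulated genes were highest in transferred heart 1. Ifitm1, Ifitm2, Ifitm6, Ifitm10 and the neutrophil and macrophage markers were highest in transferred heart 2. For the macrophage markers the margin was small, at 1.10 against 1.02 in transferred heart 1.

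Of 70 listed interferon-stimulated genes, 43 were in the table and 41 were tested. Of these, 1 passed the adjusted threshold, against 0.13% of all tested genes that were called higher. It was Oas2, which makes the activator of RNase L. Oas2 rose, with a mean of 11.9 ± 2.08 CPM (SD, n = 4) in control and 29.2 ± 7.51 CPM (SD, n = 3) in transferred hearts (edgeR adjusted p = 0.0384). The call was lost with limma-voom (adjusted p = 0.0703), with the form of the animal identifier, described further on, as a covariate (edgeR adjusted p = 0.0682) and without the first heart of each group (edgeR adjusted p = 0.0999). It was also lost without any single control heart or transferred heart 2 (edgeR adjusted p from 0.0726 to 0.157). Without adjustment 31 of 41 were higher at a p-value under 0.05, against 7.17% of all tested genes. Of the 41 fold changes, 40 were above 0, against 49.6% of all tested genes. Their median log2 fold change was 0.89, against -0.002 over all tested genes. Earlier results on these hearts already showed this direction, so it is context and not independent evidence. Relative to the control mean, the median listed gene differed by 1.33, 0.78 and 0.12 on the log2 scale in transferred hearts 1 to 3, and Ifitm3 took the same order of hearts. After Oas2, the smallest p-values belonged to Oas3, Ifi207, Herc6 and Ifi204, with log2 fold changes of 3.93, 0.95, 0.89 and 0.78 (edgeR adjusted p from 0.0546 to 0.0995).

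Other genes of interferon signalling were compared next. Irf7, the amplifier of the interferon response, starts 253.6 kb from Ifitm3 on chromosome 7, at 141263183. It was at 22.6 to 25.9 CPM in control hearts and at 931, 119 and 27.3 CPM in transferred hearts 1 to 3. All transferred hearts were above all control hearts, as for 5.99% of tested genes, transferred heart 3 by a small margin. Its log2 fold change was 3.89 with a standard error of 1.11 (edgeR adjusted p = 0.253). For Usp18 the log2 fold change was 2.29 (edgeR adjusted p = 0.301). It was 0.21 for the receptor gene Ifnlr1 and -0.16 for the kinase gene Jak1.

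Genes for partners and modifiers of IFITM proteins came next. Of 17 listed, 8 were in the table and 6 were tested. With edgeR 0 of the 6 passed the threshold, and before adjustment Cd9 was higher and Vapb lower. DESeq2 called 1, Cd9, and limma-voom 0, with the same count of 1 higher and 1 lower before adjustment. Over all tested genes the shares were 0.235% called by edgeR, 7.17% higher and 5.27% lower before adjustment, and 2.5% called higher by DESeq2, so that 1 gene among 6 is no result about the list. Cd81, the partner of Ifitm1, averaged 756 ± 34.1 CPM (SD, n = 4) and 777 ± 35.8 CPM (SD, n = 3). For Cd9, a related tetraspanin, the difference was 0.56 on the log2 scale (edgeR adjusted p = 0.172). For Vapb, an endoplasmic reticulum membrane protein, it was -0.16 (edgeR adjusted p = 0.374), and its groups did not overlap, as for 5.22% of tested genes in that direction. It was -0.03 for Zmpste24, a protease that acts with IFITM proteins, -0.17 for the methyltransferase gene Setd7 and -0.05 for Vcp. Among other CD225 genes, Prrt2 and Tmem265 were tested, with log2 fold changes of -0.03 and -0.01 and standard errors of 0.52 and 0.27.

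**Figure D4:**
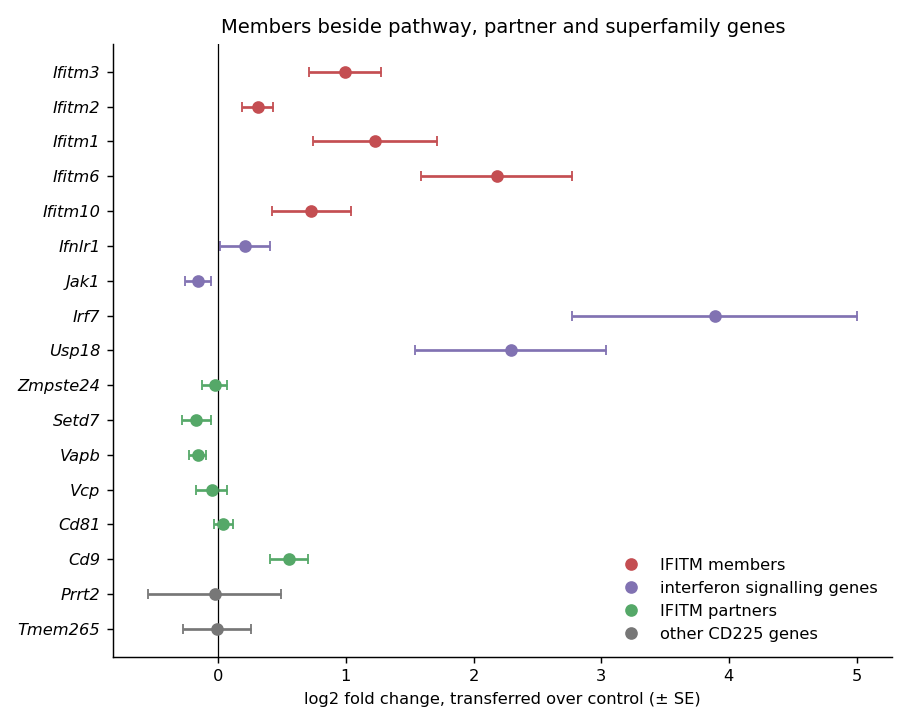
Log2 fold change of transferred over control hearts, with its standard error, for the tested IFITM genes and for interferon signalling, partner and other CD225 genes, 1 gene a line. The IFITM genes ran from 0.31 for Ifitm2 to 2.18 for Ifitm6, and the partner and other CD225 genes from -0.17 for Setd7 to 0.56 for Cd9.

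Genes beside the members on chromosome 7 were examined as well. Within 200 kb of a cluster member there were 34 other genes, of which 18 were tested. Of those 18, edgeR, DESeq2 and limma-voom each called 0 and each had 0 under 0.05 before adjustment. With edgeR the shares over all tested genes were 0.235% called and 12.4% under 0.05 before adjustment. At such shares 0 among 18 is no result about the neighbours. Their log2 fold changes ran from -0.26 to 0.16 with a median of -0.02. The tested gene nearest to Ifitm3 was the pseudogene Gm7514, at -0.12. Around Ifitm10, 6 of 26 neighbours were tested. All 3 tools called 0 of these 6 and had 0 under 0.05 before adjustment, with log2 fold changes from -0.58 to 0.25.

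**Figure D5:**
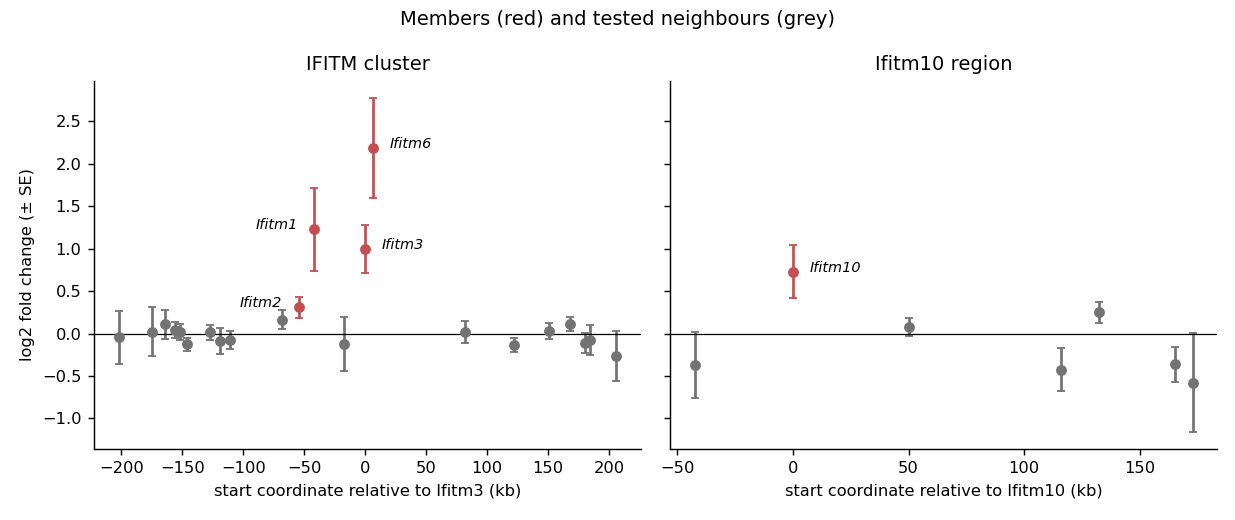
Log2 fold change with its standard error for members (red) and other tested genes (grey) against the distance of their start coordinates from that of Ifitm3 (left) or Ifitm10 (right), in kb. The 18 grey genes around the cluster lay between -0.26 and 0.16, below all 4 tested cluster members.

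Markers of other cells moved between hearts as well. Macrophage and monocyte markers, of which 7 of 13 were in the table and none was at 0, summed to between 390 and 577 CPM in control hearts and to 935, 1017 and 706 CPM in transferred hearts 1 to 3. EdgeR called 2 of the 7 higher, C1qb and Mrc1 (adjusted p = 0.0384 for both), against 0.13% of all tested genes. Both calls were lost with the identifier form as a covariate and without the first heart of each group, where no gene was called. The same held without control heart 1, 2 or 4 or transferred heart 2. For all 7 the groups did not overlap, against 5.99% of tested genes, and all 7 had an unadjusted p-value under 0.05, against 7.17%. DESeq2 called 7, against 2.5% of all tested genes called higher, and limma-voom called 0, as over all tested genes. Neutrophil markers, 6 of 10 in the table and none at 0, summed to between 9.21 and 12.7 CPM in control hearts and to 13.1, 262 and 38.1 CPM in transferred hearts 1 to 3. EdgeR called 0 of these 6, against 0.13% of all tested genes, with 6 higher before adjustment, against 7.17%. DESeq2 called 5, against 2.5% called higher. Limma-voom called 0, with 3 higher before adjustment, for which no share over all genes is given. Cxcr2 and Cd177 passed the filter only through the transferred hearts, so they had to differ to be tested and add nothing to these counts. Ifitm6 in transferred hearts 1 to 3 was at 2.33, 3.29 and 0.741 CPM. Endothelial markers, 7 of 10 in the table and none at 0, summed to 2287 to 2924 CPM in control hearts and 1957 to 2217 CPM in transferred hearts. With edgeR 2 of the 7 were called lower, against 0.104% of all tested genes. Before adjustment 3 were lower, against 5.27%, and 1 higher, against 7.17%. The endothelial, macrophage and neutrophil lists were chosen with earlier results of these data known. Their counts are therefore context and not independent evidence. Most of the gap between the endothelial sums came from Aqp1, a water channel, which fell from 839 to 417 CPM on average (edgeR adjusted p = 0.0384). The log2 fold change was -0.91 for Aplnr (edgeR adjusted p = 0.0384), -0.28 for Tie1, -0.12 for Kdr, 0.26 for Emcn, 0.20 for Egfl7 and 0.11 for Eng. The calls of Aqp1 and Aplnr were lost with limma-voom and in the same edgeR settings as those of C1qb and Mrc1. Fibroblast markers, 5 of 9 in the table and none at 0, overlapped, from 1378 to 1903 and from 1292 to 1693 CPM. Erythroid markers, 2 of 5 in the table and none at 0, spanned 3982 to 14679 and 2736 to 13106 CPM. T cell markers, 7 of 8 in the table, summed to between 30.02 and 38.5 CPM without and between 28.5 and 36.1 CPM with transfer, of which Cd28 made up most. In single hearts 0 to 2 of them were at 0. Cd8a, Cd2, Lck and Zap70 averaged at most 0.340 CPM in either group. Cd2 did not overlap, at 0 to 0.0430 CPM without and 0.141 to 0.247 CPM with transfer, but was near the floor and not tested. For Cd247 the log2 fold change was -1.06 (edgeR adjusted p = 0.278). It was lower before adjustment, as were 5.27% of tested genes. The part of these cells, and of human reads counted on mouse genes, in the IFITM values was not tested.

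Animals were named in the labels either by a number (5 hearts) or by a code that starts with letters (the first heart of each group). This is not described as a batch. Between the 2 hearts with a letter code, the log2 difference was 1.79 for Ifitm3, 2.19 for Ifitm6, 0.37 for Ifitm2, 0.04 for Ifitm10 and -0.29 for Ifitm1, with 1 heart of each group and no test. In the 5 other hearts the edgeR log2 fold change was 0.55 for Ifitm3 (adjusted p = 0.358), 0.29 for Ifitm2 (adjusted p = 0.482), 2.10 for Ifitm6 (adjusted p = 0.316), 1.75 for Ifitm1 (adjusted p = 0.229) and 1.002 for Ifitm10 (adjusted p = 0.286). With the form as a covariate, edgeR called 0 of the 5 members and 0 of all tested genes. Before adjustment 3 members were under 0.05, Ifitm3, Ifitm2 and Ifitm6, of which Ifitm6 adds nothing to such a count. No unadjusted share over all genes is given for that fit, so the count is no result about the members.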

How the data were processed

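The authors deposited a table of raw counts per gene, of which 4.63% of values had a fractional part, so they were treated as estimated counts and rounded for testing. Per the submitters' processing notes, bcl2fastq 2.20.0.422, cutadapt 2.5, STAR 2.7.2b, featureCounts 1.6.4 and DESeq2 1.22.2 were used with GRCm38.p6; how reads matching several places were divided is not given in the sources used here. Of the rows, 20343 were complete and used; the last, cut off within its line, was not. Genes elsewhere than on chromosomes 1 to 7 and the start of 8 are not analysed here. Groups came from the treatment label, and heart numbers in accession order only name samples.

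In R 4.3.3, genes were filtered with filterByExpr and tested with edgeR 4.0.16 (TMM, robust quasi-likelihood test, Benjamini-Hochberg threshold 0.05), with a procedure checked on simulated counts. Standard errors came from the F statistic. Log2 CPM used a prior count of 2. Counts of same-group hearts differed by a chi-square of 17.4 to 77.2 per degree of freedom over 9 pairs, so none looked like a repeat. Alternatives included other scalings and filters, DESeq2 1.42.0, limma-voom (limma 3.58.1), unrounded counts, a covariate and left-out hearts. The members, lists and motif were chosen with earlier results of these data known; a longer response-element motif was searched first and replaced by the one printed. All members are described; other genes named are those of the fixed lists past the threshold or with the smallest p-values, neighbours within 200 kb, and the 5 tested genes with the highest correlation to each member. Of the remaining genes named, markers and those sharing sequence, some were chosen after their values were seen. One listed gene of interferon signalling and a second motif that was searched are not reported here.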

Additional observations from a re-analysis of the deposited data

Results flagged for a closer look

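The log2 CPM of Ifitm5 in control heart 4 was -2.66, far from the values of the other 3 control hearts, which lay between -1.20 and -1.05. That heart held 1 count of Ifitm5 and the fewest counts in all. Of 8 results checked in this way over the 4 control hearts, 1 stood out, and 0.4 would be expected by chance.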

How the results depend on the processing

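All 5 tested members kept a log2 fold change above 0 whenever they were tested. Against 0 members called, DESeq2 gave 1 (Ifitm6) and leave-one-out fits gave 0 to 2, with 2 (Ifitm3 and Ifitm6) only without transferred heart 3, where 140 genes passed in place of 18. Ifitm6 was not tested under the filter of 1 CPM in 3 hearts. Against 1 interferon-stimulated gene called, DESeq2 gave 15, scaling to total counts 3, the filter of at least 1 count 3, and limma-voom, the identifier covariate and leaving out both hearts with letter codes 0 each (28, 27 and 17 at an unadjusted p-value under 0.05). Leaving out one heart gave from 0 to 21 of them, with 21 without transferred heart 3 and 0 without any single control heart or transferred heart 2. All genes called at the adjusted threshold numbered 18 with edgeR, 252 with DESeq2 and 0 with limma-voom. The Ifitm3 share difference of 9.13 percentage points became 6.69 with counts per kb and ran from 4.14 to 12.0 with one heart left out, where the fewer splits allow no p-value under 0.05. Ifitm3 has fractional counts, so the share over members with whole counts was not run. The Ifitm5 difference of -0.03 CPM ran from -0.12 to 0.10 with one heart left out, and turned positive without control heart 2 or transferred heart 1. Per kb of transcript, the control mean moved from 106 to 225 CPM per kb for Ifitm2 and from 0.570 to 0.939 for Ifitm10, since those transcripts are shorter than the combined exons. For the other shifts, the cause was not tested. No paired analysis was possible because the labels share fewer than 2 replicate numbers between the groups.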

Other observations

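In transferred hearts 1, 2 and 3, 41, 34 and 20 of the 41 tested interferon-stimulated genes were above every control heart, compared with 24.4%, 26.1% and 25.3% of all tested genes. Among the 41, Oas3 and Ifi209 passed the filter only through transferred hearts and add nothing to these counts. Oas2 was at 25.02 and 24.7 CPM in transferred hearts 2 and 3, against 9.29 to 13.9 CPM in control hearts, and Ifitm3 was at 335 and 195 CPM in transferred hearts 2 and 3. Of the 4 IFITM genes tested other than Ifitm6, which passed the filter only through transferred hearts, 3, 4 and 2 were above every control heart in transferred hearts 1, 2 and 3. In transferred heart 3 these were Ifitm1 and Ifitm10. These comparisons were chosen after the values were seen and were not tested.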
